A study of Mus musculus with 8 samples.

Results

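Cd38 and 8 other genes of NAD metabolism were followed across 8 RNA-seq libraries of lung interstitial macrophages. Of these, 4 came from recipients of marrow with floxed Tgfbr2 and a Cre active in myeloid cells, and 4 from recipients of floxed marrow without Cre. The genes are the NAD-consuming surface enzymes Cd38 and Bst1, the salvage enzymes Nampt, Naprt, Nmnat1 and Nmnat3, the NAD kinase Nadk, and the NAD users Sirt1 and Parp1. They were taken by symbol from a table of 22597 genes, and all 9 were found in it, each in 1 row. They were picked with the differences between the genotypes in these libraries already in view, so their differences, and the counts of them called in each fit, are given as a description that tests nothing further.

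The Tgfbr2_KO libraries (KO1 to KO4) come from mice that received marrow of CD45.2 donors with floxed Tgfbr2 alleles and Cre in the Lyz2 gene, which is active in myeloid cells. The WT libraries (WT1 to WT4) come from mice that received marrow of CD45.2 Tgfbr2fl/fl donors without Cre. Every recipient was a lethally irradiated CD45.1/CD45.2 IMDTR mouse, named Cx3cr1-DTR in the protocol, whose thorax was shielded and whose own interstitial macrophages can be deleted with diphtheria toxin. The toxin (50 ng) was given 1 month after transplantation, and the macrophages were sorted 10 days later. All samples are labelled female and C57BL/6. The age tag reads 12 to 16 weeks, while the protocol gives 18 weeks for the recipients. Only the KO donors carried Cre, so Cre itself and receptor loss cannot be told apart. Whether every library is a separate mouse is not stated, so all errors and p-values describe the variation among these 8 libraries, part of which may be technical.

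NAD carries electrons in metabolism and is also consumed as a substrate. CD38 and its relative CD157, encoded by Bst1, are surface enzymes that split NAD and make ADP-ribose and cyclic ADP-ribose, which releases calcium inside cells, and CD38 is known as a major NAD-consuming enzyme of activated macrophages. Cells rebuild NAD mainly from nicotinamide through NAMPT and the NMNAT enzymes, or from nicotinic acid through NAPRT, while sirtuins and PARPs use NAD to remove acyl groups from proteins or to attach ADP-ribose to them.

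Bst1 and Cd38 lie next to each other on mouse chromosome 5 (GRCm38, GENCODE M21, both on the plus strand), Bst1 (ENSMUSG00000029082) from 43818885 to 43843986 and Cd38 (ENSMUSG00000029084) from 43868553 to 43912375. The gap between them is 24566 bp and holds 0 other protein-coding genes. The promoter of Cd38 is shown because Cd38 had the largest difference of the 9 genes. It is the 250 bases before the start of the gene in RefSeq (GRCm38.p6, chr5:43868559-43868808, plus strand), where GENCODE M21 begins the gene further upstream, so that the whole window lies inside Cd38 as positioned above. Capitals mark the match to CAGAC, the short element bound by Smad proteins, the transcription factors below the TGF-β receptor.
Cd38 promoter: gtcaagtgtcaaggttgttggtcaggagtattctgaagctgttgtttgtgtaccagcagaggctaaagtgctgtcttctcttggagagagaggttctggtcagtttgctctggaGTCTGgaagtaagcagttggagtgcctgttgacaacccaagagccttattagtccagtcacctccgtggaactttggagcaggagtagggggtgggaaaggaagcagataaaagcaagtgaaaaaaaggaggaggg
The match is read on the opposite strand as GTCTG and begins 136 bases before the RefSeq start. CAGAC in either orientation was in 42.2% of 32851 promoter windows of this length, so a match is common. The STAT element TTCNNNGAA (both strands, no overlap with CAGAC, in 7.02% of windows) and the core of the interferon-stimulated response element (both strands, in 2.98%) had 0 matches in the Cd38 window. RefSeq promoter windows were matched to 7 of the 9 genes.

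The gene counts summed to 15597310 (WT1) to 37654133 (WT4) per library, and 3 counts, taken as the detection floor, corresponded to 0.0844 to 0.177 TMM-scaled CPM, which relates a gene's count to the scaled library total. WT1, WT2 and KO1 held more lung tissue transcripts than the other 5 libraries and are called lung-rich, and the 5 are called lung-poor. The summed CPM of 15 epithelial markers was 6130 in KO1 and 3916 and 3432 in WT1 and WT2, against 229 to 354 in the other libraries, and that of 14 endothelial markers was 2704 to 5260 against 281 to 362. The macrophage markers were present in all libraries, with a summed level of 15044 CPM in KO1 and 33184 to 33412 CPM in KO2 to KO4, against 21640 and 23821 CPM in WT1 and WT2 and 35875 and 36406 CPM in WT3 and WT4. Both genotypes occur in both sets, which are not groups of the study, so values are given over all libraries and within each set. KO1 is the only KO library of the lung-rich set, so the SE within that set hold no variation among KO libraries. It also held the largest epithelial sum and the lowest macrophage sum of that set. Neither the lung-rich comparison nor an adjustment for set levels this, and its part in those values was not tested. Tgfbr2 itself had a log2 fold change of -0.03 (SE 0.12), with overlapping groups, so the gene total does not separate the genotype labels. Lyz2, the gene that carries Cre, was lower in every KO library (3440 to 5611 CPM) than in every WT library (7285 to 13193 CPM).

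**Figure D1:**
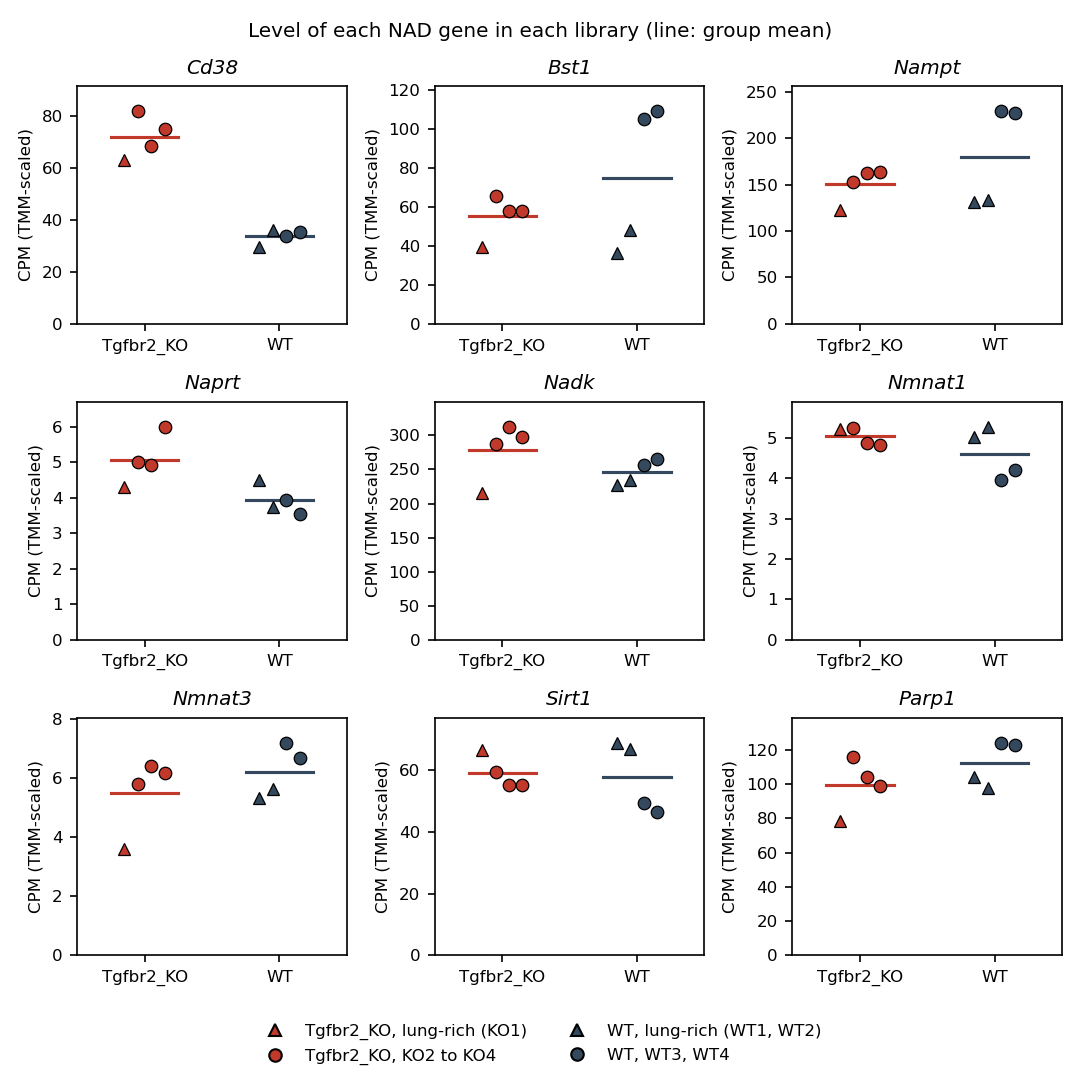
TMM-scaled CPM of the 9 NAD genes (y axes, from 0) in 4 Tgfbr2_KO and 4 WT libraries (x axes), with 1 point per library, triangles for the lung-rich libraries and a line at each group mean. Cd38 is at 63.3 to 81.9 CPM in Tgfbr2_KO and 29.8 to 36.1 CPM in WT, and the other 8 genes overlap between the genotypes.

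Cd38, the main NAD-hydrolysing surface enzyme, was about 2.13 times as high in Tgfbr2_KO as in WT macrophages, and the difference was present in both library sets. It was at 63.3, 81.9, 68.5 and 75.0 CPM in KO1 to KO4 and at 29.8, 36.1, 34.0 and 35.4 CPM in WT1 to WT4. The lowest KO library was above the highest WT library, and the lung-rich KO1 and WT1 were the lowest of their genotypes. The means were 72.2 ± 8.05 CPM in Tgfbr2_KO and 33.8 ± 2.85 CPM in WT (SD, n = 4 each). On the log2 scale the difference was 1.09 (SE 0.10, 95% interval 0.86 to 1.33). The log2 fold change was 1.11 (SE 0.07) for KO2 to KO4 against WT3 and WT4, and 0.87 (SE 0.14) for KO1 against WT1 and WT2. The latter rests on KO1 alone on the KO side. In the bulk libraries a larger share of Cd38-expressing cells cannot be told apart from more Cd38 RNA per cell, and likewise for every gene below.

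Bst1, the neighbouring gene and the other ADP-ribosyl cyclase, went the other way in the lung-poor libraries. It was at 39.4, 65.5, 57.7 and 58.0 CPM in KO1 to KO4 and at 36.2, 48.3, 105 and 109 CPM in WT1 to WT4. WT3 and WT4 were above every other library, while KO1 lay between WT1 and WT2. Over all libraries the KO to WT difference was -0.44 on the log2 scale (SE 0.38, 95% interval -1.33 to 0.46), with -0.82 (SE 0.05) in the 5 lung-poor libraries and -0.17 (SE 0.19) in the lung-rich ones. Bst1 overlaps the protein-coding gene Fbxl5 on the opposite strand, and whether the counting used strand is not stated, so reads of the pair may be mixed.

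Set against each other within a library, and per kilobase of exon, Cd38 was above Bst1 in each KO library and below it in each WT library. The ratio of Cd38 to Bst1 levels per kilobase was 1.37, 1.07, 1.01 and 1.10 in KO1 to KO4 and 0.701, 0.637, 0.275 and 0.278 in WT1 to WT4. The ratio separated the genotypes in both sets, with the lowest values in WT3 and WT4. It joins the differences of the 2 genes and is no separate evidence for either.

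Nampt, the rate-limiting enzyme of salvage from nicotinamide, was also highest in WT3 and WT4. It was at 123, 153, 163 and 164 CPM in KO1 to KO4 and at 131, 134, 229 and 227 CPM in WT1 to WT4. Both of these lay above every KO library, and the lung-rich libraries of both genotypes were the lowest. Its log2 difference over all libraries was -0.26 (SE 0.22), with -0.51 (SE 0.04) in the 5 lung-poor libraries and -0.18 (SE 0.12) in the lung-rich ones.

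Naprt, which starts salvage from nicotinic acid, was a low gene with 76 to 130 counts per library. It was at 4.30, 5.0, 4.94 and 5.99 CPM in KO1 to KO4 and at 4.50, 3.73, 3.95 and 3.54 CPM in WT1 to WT4. Only KO1 and WT1 overlapped, and the log2 fold change was 0.36 (SE 0.16), with 0.51 (SE 0.17) in the 5 lung-poor libraries and 0.00 (SE 0.28) in the lung-rich ones. Naprt overlaps Eef1d on the same strand, so some of its few reads may belong to that gene.

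Nmnat1, the nuclear enzyme that completes NAD from its mononucleotide, was at 5.22, 5.25, 4.89 and 4.84 CPM in KO1 to KO4 and at 5.03, 5.27, 3.95 and 4.22 CPM in WT1 to WT4. The genotypes overlapped, the difference of 0.13 (log2, SE 0.14) was about the size of its error, and WT3 and WT4 were the lowest libraries. Nmnat3, a relative described in mitochondria, was at 3.60, 5.79, 6.42 and 6.16 CPM in KO1 to KO4 and at 5.32, 5.62, 7.18 and 6.67 CPM in WT1 to WT4. KO1 was the lowest library, and the log2 fold change was -0.18 (SE 0.21), with -0.17 (SE 0.13) in the 5 lung-poor libraries and -0.67 (SE 0.26) in the lung-rich ones. Nmnat1 overlaps Tmem274 on the opposite strand, with the same limit as for Bst1.

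Nadk, which phosphorylates NAD to NADP in the cytosol, was the most abundant of the 9 genes. It was at 215, 288, 312 and 298 CPM in KO1 to KO4 and at 227, 235, 257 and 265 CPM in WT1 to WT4. KO2 to KO4 were above every WT library and KO1 was below every WT library. The log2 fold change of 0.18 (SE 0.13) over all libraries therefore joined 0.20 (SE 0.04) in the 5 lung-poor libraries and -0.17 (SE 0.12) in the lung-rich ones.

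Of the NAD users, Sirt1, a nuclear deacetylase, was sorted by library set more than by genotype. It was at 66.6, 59.2, 55.1 and 55.0 CPM in KO1 to KO4 and at 68.7, 66.7, 49.3 and 46.4 CPM in WT1 to WT4. The 3 lung-rich libraries were the highest, and the genotypes differed by 0.03 (log2, SE 0.15), with 0.25 (SE 0.06) in the 5 lung-poor libraries and -0.09 (SE 0.11) in the lung-rich ones. Parp1, the main DNA-damage-activated poly-ADP-ribose polymerase, was at 78.4, 116, 104 and 98.9 CPM in KO1 to KO4 and at 104, 98.0, 124 and 123 CPM in WT1 to WT4. WT3 and WT4 were above every KO library, KO1 was the lowest, and the log2 fold change was -0.18 (SE 0.14), with -0.21 (SE 0.05) in the 5 lung-poor libraries and -0.43 (SE 0.11) in the lung-rich ones.

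**Figure D2:**
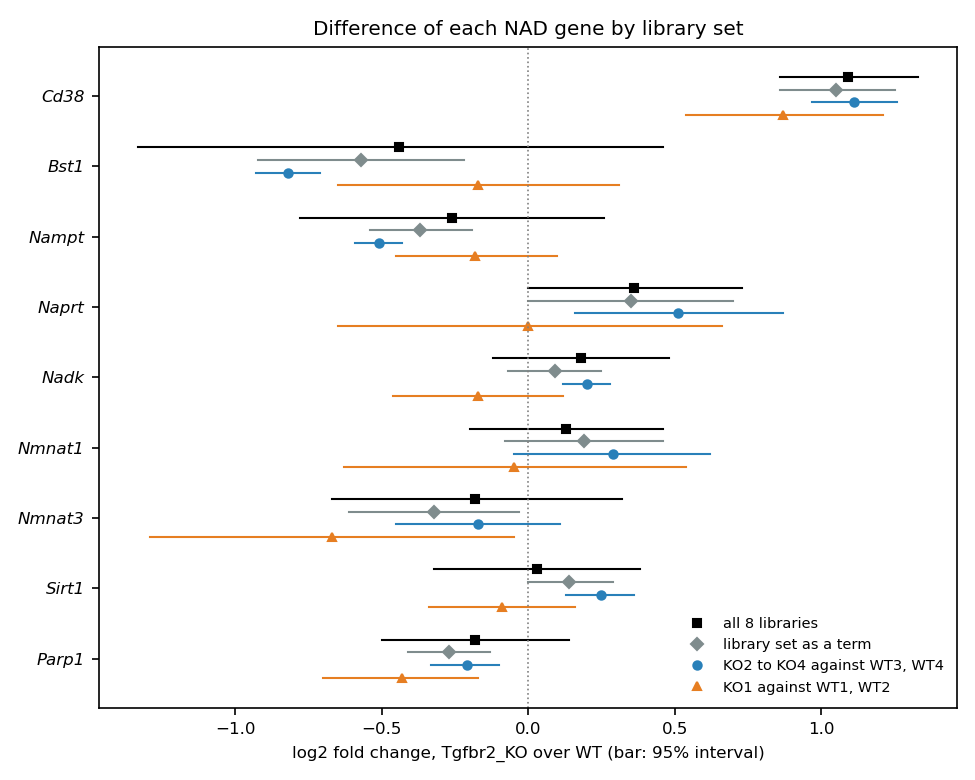
Log2 fold change of Tgfbr2_KO over WT (x axis) for each of the 9 NAD genes (rows), with 95% intervals, from all 8 libraries, from a fit adjusted for library set (library set as a term), and within each set. Cd38 lies between 0.87 and 1.11 in the 4 fits, while Nadk, Nmnat1 and Sirt1 have opposite signs in the 2 sets.

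Of the 9 genes, all of which passed the filter on low counts, 1 was called higher in Tgfbr2_KO (Cd38) and 0 lower by edgeR's quasi-likelihood test at an adjusted p under 0.05, while 0.196% of 12750 genes tested were called higher and 0.102% lower. In the same fit 1 of the 9 had an unadjusted p under 0.05, and DESeq2 and limma voom also called 1 higher and 0 lower. Of all genes, DESeq2 called 347 higher and 180 lower, and limma voom 21 and 11. All KO libraries were above all WT libraries for 1 of the 9 genes and below them for 0, against 4.19% and 2.71% of the genes tested. The call of Cd38 ended, with 0 genes of the whole table called, when any single library other than KO1 was left out, although its log2 fold change stayed between 1.02 and 1.15.

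In a fit adjusted for library set, 1 of the 9 genes was called higher (Cd38) and 3 lower (Bst1, Nampt and Parp1), with 8.59% and 7.89% of all genes called. In this fit the log2 fold changes were 1.05 (SE 0.08) for Cd38, -0.57 (SE 0.15) for Bst1, -0.37 (SE 0.08) for Nampt and -0.27 (SE 0.06) for Parp1. The adjustment does not level the lung content of KO1 with that of WT1 and WT2. WT3 and WT4 lay closer together than any other pair within a genotype. When they were summed into 1 library and KO4 was left out, 1 of the 9 was called higher and 0 lower, against 70 and 115 of all genes. Within the 5 lung-poor libraries 4 were called higher (Cd38, Naprt, Nadk and Sirt1) and 3 lower (Bst1, Nampt and Parp1), where 19.7% and 18.7% of all genes were called. There, 5 of the 9 lay with every KO above every WT library and 4 with every KO below, against 29.2% and 30.3% of genes. In the 3 lung-rich libraries KO1 was above both WT libraries for 1 of the 9 and below both for 5, against 48.6% and 30.7% of genes. Since the genes were chosen on this contrast, nothing is read from these shares. The median log2 fold change of the 9 genes was 0.03 over all libraries, and that of all genes tested was -0.00834.

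Per kilobase of exon, which allows levels of different genes to be compared, Nadk was highest with a mean of 70.0 CPM per kilobase over the 8 libraries (57.3 to 83.3). Nampt followed at 32.8 (24.3 to 45.3), Parp1 at 20 (14.8 to 23.4), Bst1 at 19.6 (10.9 to 32.7), Cd38 at 13.6 (7.65 to 21.1) and Sirt1 at 11.0 (8.71 to 12.9). Naprt at 1.92 (1.51 to 2.56), Nmnat1 at 1.59 (1.30 to 1.74) and Nmnat3 at 1.17 (0.72 to 1.43) were far lower. The ranges of neighbours in this order overlapped except between Nadk and Nampt, between Nampt and Parp1, and between Sirt1 and Naprt. Cd38 was at 18.6 CPM per kilobase in Tgfbr2_KO and 8.69 in WT, against 16.6 and 22.5 for Bst1, so the order of the 2 hydrolase genes differed between the genotypes.

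The rest of the NAD network was read from 77 further gene symbols, of which 76 rows were in the table and 66 were tested. Over all 8 libraries 0 of the 66 were called higher and 0 lower (edgeR quasi-likelihood test), against 0.196% and 0.102% of all genes. With so few calls in this fit, which is also the one over all 8 libraries for the lists below, 0 calls do not show that the genes were unchanged. In it 4 higher and 1 lower had an unadjusted p under 0.05. DESeq2 called 3 of these NAD genes higher and 1 lower, against 347 and 180 of all genes. With limma voom 0 were called in either direction, against 21 and 11 of all genes. The median log2 fold change of the 66 in the edgeR fit was 0.02. Adjusted for library set, 4 rose (Kmo, Ryr1, Parp14 and Slc25a51) and 5 fell (Kynu, Enpp1, Entpd1, Pgd and Trpm2), which is 13.6% of the 66 against 16.5% of all genes. With WT3 and WT4 summed and KO4 left out, 0 were called in either direction, against 70 higher and 115 lower of all genes. In that fit 5 of the NAD genes were higher and 5 lower with an unadjusted p under 0.05. In the 5 lung-poor libraries 11 of 63 rose and 10 fell, or 33.3% against 38.5% of all genes.

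Of the 5 tested genes that make NAD from tryptophan, 1 rose (Kmo) and 1 fell (Kynu) after set adjustment, and 0 were called over all 8 libraries. In the set-adjusted fit 8.59% of all genes were called higher and 7.89% lower, which is the background for this list and those that follow. Kmo, which hydroxylates kynurenine, was at 11.9, 25.7, 24.4 and 25.7 CPM in KO1 to KO4 and at 9.40, 6.81, 9.33 and 8.75 CPM in WT1 to WT4. Every KO library was above every WT library, with 1.35 on the log2 scale (SE 0.26, edgeR adjusted p = 0.107) over all libraries and 1.17 (SE 0.19, edgeR adjusted p = 0.00647) in the set-adjusted fit. Kynu, which cleaves the product, was at 2.35, 2.62, 2.85 and 2.69 CPM in KO1 to KO4 and at 4.38, 4.57, 12.8 and 12.0 CPM in WT1 to WT4. Every KO library was below every WT library, with -1.68 (SE 0.40, edgeR adjusted p = 0.161) over all libraries and -1.77 (SE 0.23, edgeR adjusted p = 0.00222) after set adjustment. Qprt, the enzyme that feeds the pathway into NAD, had 0.37 (SE 0.22) and Afmid, an early step, -0.29 (SE 0.19), and neither was called in either fit.

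Of the 9 tested genes of calcium release by cyclic ADP-ribose and NAADP, which include targets of the products of CD38, 1 rose (Ryr1) and 1 fell (Trpm2) after set adjustment, and 0 were called over all 8 libraries. Ryr1, a ryanodine receptor calcium channel of the kind sensitive to cyclic ADP-ribose, was at 3.74, 6.00, 5.81 and 7.75 CPM in KO1 to KO4 and at 2.13, 2.20, 2.05 and 2.05 CPM in WT1 to WT4. The groups did not overlap, and the difference was 1.46 on the log2 scale (SE 0.23, edgeR adjusted p = 0.0622) over all libraries and 1.35 (SE 0.21, edgeR adjusted p = 0.00509) after set adjustment. Trpm2, a calcium channel opened by ADP-ribose, had -0.25 (SE 0.30, edgeR adjusted p = 0.999) and -0.41 (SE 0.09, edgeR adjusted p = 0.018). The lysosomal channel Tpcn1, a target of the messenger NAADP, had 0.10 (SE 0.11) after set adjustment, Jpt2, which binds NAADP, 0.07 (SE 0.06), and Lsm12, also described as binding it, -0.26 (SE 0.09), and none of these was called there.

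For surface enzymes of NAD and nucleotides, 0 of 11 rose and 2 fell after set adjustment. Entpd1, which encodes the ATP-hydrolysing CD39, was at 172, 213, 244 and 224 CPM in KO1 to KO4 and 189, 251, 285 and 290 CPM in WT1 to WT4, with -0.35 (SE 0.09, edgeR adjusted p = 0.0348) in that fit. Enpp1, which splits nucleotides including NAD, was at 4.66, 9.96, 11.2 and 7.70 CPM in KO1 to KO4 and 8.69, 9.88, 12.9 and 15.4 CPM in WT1 to WT4, with -0.70 (SE 0.15, edgeR adjusted p = 0.0173). Both overlapped between the genotypes over all libraries. The ATP receptor P2rx7 had 0.16 (SE 0.09), the nucleoside phosphorylase Pnp 0.18 (SE 0.06) and the nicotinic acid receptor Hcar2 0.41 (SE 0.16), and none of these 3 was called there.

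Among other PARPs and genes that remove ADP-ribose, 1 of 19 rose after set adjustment and 0 fell. This was Parp14, an interferon-induced mono-ADP-ribosyltransferase, at 240, 252, 280 and 272 CPM in KO1 to KO4 and 175, 185, 195 and 189 CPM in WT1 to WT4 (log2 fold change 0.46, SE 0.05, edgeR adjusted p = 0.00135). Parp8, Parp12 and the tankyrase Tnks had -0.18 (SE 0.07), 0.12 (SE 0.08) and 0.09 (SE 0.04) in that fit and were not called. For the 8 genes of other sirtuins and their regulators 0 were called in any of these 3 fits, with log2 fold changes after set adjustment of 0.00 (Sirt2), -0.09 (Sirt6), -0.07 (Sirt7), 0.14 for the Sirt1 inhibitor Ccar2 and -0.18 for Rps19bp1, which encodes an activator of Sirt1. Of 7 other salvage genes 1 rose, the mitochondrial NAD carrier Slc25a51, at 95.8, 87.4, 82.6 and 90.1 CPM in KO1 to KO4 and 77.9, 83.6, 70.0 and 68.1 CPM in WT1 to WT4 (0.30, SE 0.05, edgeR adjusted p = 0.0062). Nadsyn1, Nudt13 and Nmnat2 had -0.27 (SE 0.15), 0.05 (SE 0.10) and 0.31 (SE 0.49), not called. In the NADP list 1 of 7 fell, the pentose phosphate enzyme Pgd (-0.37, SE 0.05, edgeR adjusted p = 0.00327), while Idh1 had 0.08 (SE 0.07) and was not called. Nnt, which had 0.36 (SE 0.14) for 1 of its 2 identifiers and was not called, has 2 overlapping entries, so its reads may be divided.

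**Figure D3:**
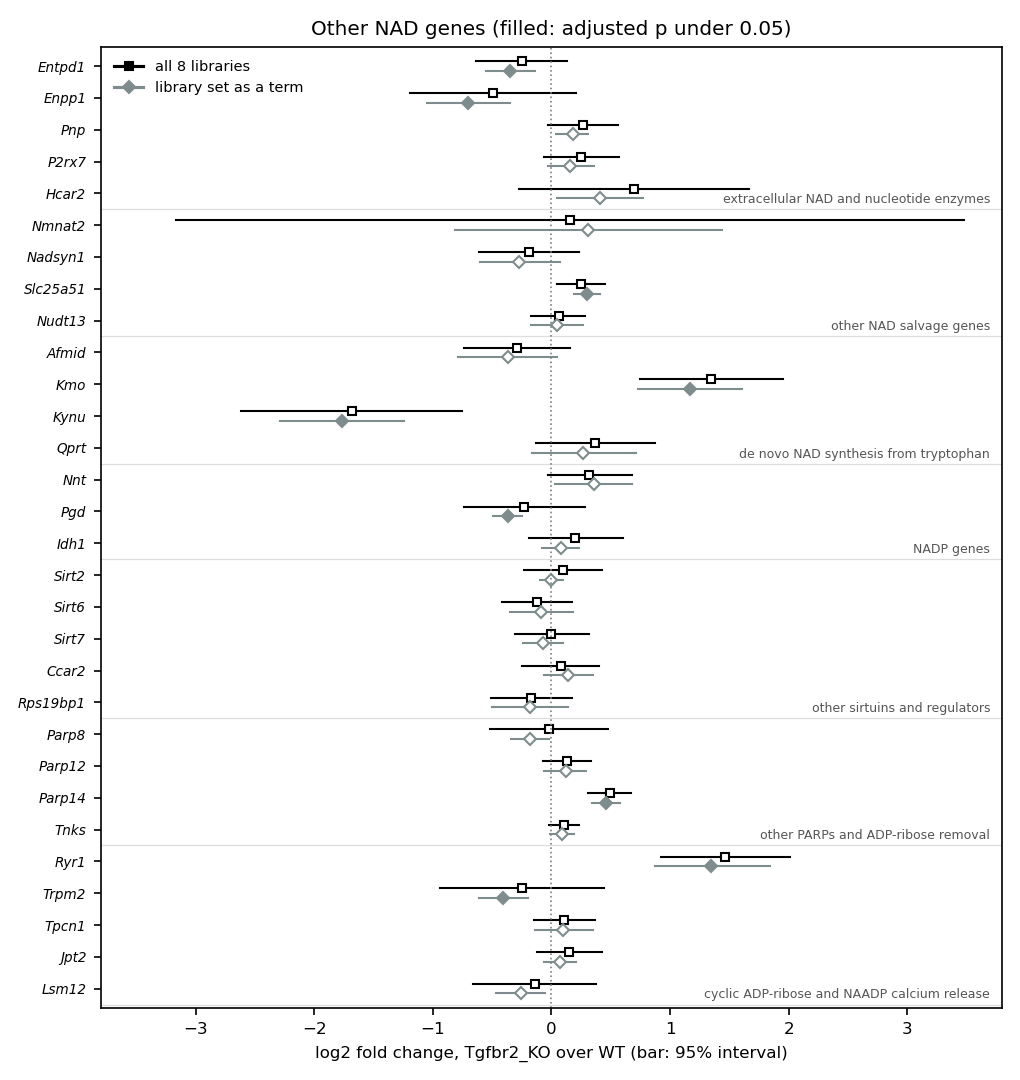
Log2 fold change of Tgfbr2_KO over WT (x axis) with 95% intervals for the named other NAD genes (rows, grouped by role), over all 8 libraries (squares) and adjusted for library set (diamonds), filled where the edgeR adjusted p was under 0.05. Filled symbols occur only in the set-adjusted fit, with 4 to the right of 0 and 5 to the left.

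The genes whose levels tracked Cd38 most closely over the 8 libraries were Lyz1, Mucl1, Cd1d1, Mdm1 and Trappc9, with Pearson's r of log2 CPM from 0.98 to 0.99 among 8808 genes with a mean of at least 10 CPM. Lyz1, a second lysozyme gene, was at 759, 1758, 1696 and 1706 CPM in KO1 to KO4 and 138, 172, 174 and 171 CPM in WT1 to WT4, so its KO1 value stood apart in a way that Cd38 did not. Cd1d1, which presents lipids to T cells, was at 21.7, 29.7, 31.8 and 31.2 CPM in KO1 to KO4 and 10.9, 13.0, 12.8 and 12.7 CPM in WT1 to WT4. Lyz1 lies 5475 bp and Mdm1 859489 bp from Lyz2, the gene that carries Cre in KO donors, on chromosome 10, and Lyz1 is a close copy of Lyz2, so their reads may be shared. After the mean of each library set was subtracted, the closest genes were Pilrb1, Il3ra, Usp49, Nxpe5 and Lyz1 (r 0.99 for each). For the 5 other NAD genes of the 9 with at least 10 CPM, the r to Cd38 over 8 libraries was 0.56 for Nadk, 0.02 for Sirt1, -0.14 for Bst1, -0.24 for Nampt and -0.33 for Parp1. After the set means were subtracted it was 0.51 for Nadk, 0.73 for Sirt1, -0.76 for Bst1, -0.90 for Nampt and -0.84 for Parp1. The points share the genotype split, depth and lung content of the libraries.

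**Figure D4:**
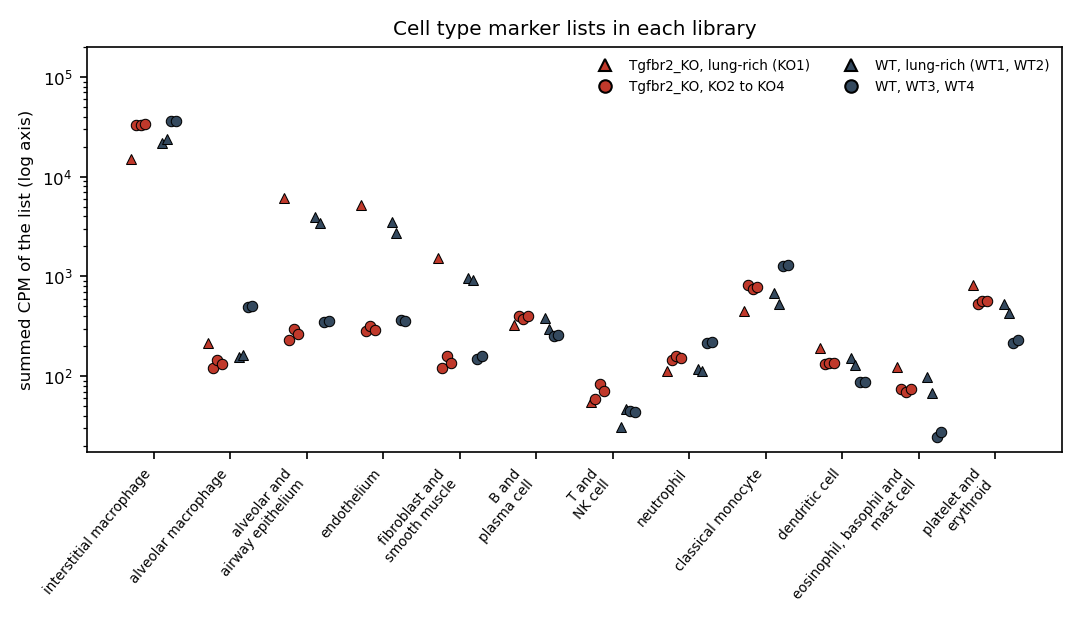
Summed CPM of each cell type marker list (x axis; y axis on a log scale) in 4 Tgfbr2_KO and 4 WT libraries, with triangles for the lung-rich libraries. Epithelial, endothelial and fibroblast lists are high in KO1, WT1 and WT2, and the classical monocyte list is highest in WT3 and WT4.

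Markers of other cells that express these genes moved with some of the values. Cd38 is known on B, T and NK cells. The 10 B and plasma cell markers summed to 329 to 400 CPM in Tgfbr2_KO and 255 to 383 CPM in WT. They overlapped over all libraries but not among the lung-poor ones, where they were at 374 to 400 CPM in Tgfbr2_KO and 255 and 262 CPM in WT. Ighm held 199 to 367 CPM of this in Tgfbr2_KO and 220 to 274 CPM in WT. The 13 T and NK cell markers summed to 55.0 to 82.8 CPM in Tgfbr2_KO and 30.8 to 46.9 CPM in WT, without overlap. Cd4 held 28.3 to 79.4 CPM of this in Tgfbr2_KO and 13.7 to 40.0 CPM in WT, and the lack of overlap of the sum rested on it. Every other member was at most 1.10 CPM in KO2 to KO4 and at most 1.69 CPM in WT3 and WT4, both values being those of Klrb1c. The T cell receptor subunit Cd3e was at 1.55, 0, 0.153 and 0.165 CPM in KO1 to KO4 and 0.651, 0.703, 0 and 0.253 CPM in WT1 to WT4. In KO2 to KO4, where Cd38 was at 68.5 to 81.9 CPM, Cd3e was at most 0.165 CPM, and the part of the B, T and NK cell sums in the Cd38 difference was not tested. Bst1 and Nampt are known in monocytes and neutrophils. The 7 classical monocyte markers summed to 446, 829.1, 741 and 786 CPM in KO1 to KO4 and 685, 524, 1277 and 1289 CPM in WT1 to WT4, and the 10 neutrophil markers to 112, 146, 159 and 152 CPM in KO1 to KO4 and 119, 111, 215 and 221 CPM in WT1 to WT4, with Ly6g at most 0.132 CPM in any library. The 10 alveolar macrophage markers summed to 122 to 215 CPM in Tgfbr2_KO and 156 to 501 CPM in WT. Chil3, which is in both the alveolar macrophage and the classical monocyte list, was at 348 and 347 CPM in WT3 and WT4 and at 15.8 to 30 CPM in the other 6 libraries, so it held most of the alveolar sum there. The 3 sums were highest in WT3 and WT4, as were Bst1, Nampt and Kynu, and their part in those differences was not tested. The 10 platelet and erythroid markers summed to 534.6 to 829.4 CPM in Tgfbr2_KO and 215.7 to 535.2 CPM in WT. Pf4, the leading one of them, was at 223, 466, 478 and 483 CPM in KO1 to KO4 and 176, 165, 134 and 139 CPM in WT1 to WT4, without overlap like Cd38. All other members overlapped. Itga2b was at 6.98, 1.33, 1.07 and 0.99 CPM in KO1 to KO4 and 8.99, 4.83, 1.33 and 0.816 CPM in WT1 to WT4. Hba-a1 was at 13.7 to 20.2 CPM in KO2 to KO4 and 17.9 and 18.7 CPM in WT3 and WT4. Ppbp was at 8.92 to 12.0 CPM and 4.05 and 3.99 CPM in the same libraries. The dendritic cell list and the eosinophil, basophil and mast cell list overlapped over all libraries but not among the lung-poor ones. They summed to 131.1 to 136.2 and 68.7 to 74.7 CPM in KO2 to KO4. In WT3 and WT4 they summed to 87.5 CPM and to 24.8 and 27.4 CPM. Of the dendritic members, Cd209a was higher and Clec9a lower in KO2 to KO4, and Il1rl1 held most of the other list. The part of these lists, and of the platelet and erythroid list, in the Cd38 difference was not tested. None of the 12 marker lists held a gene called between the genotypes over all 8 libraries, where 0.298% of all genes were called. The macrophage sum joined members that moved apart. Cx3cr1 was at 214 to 358 CPM in Tgfbr2_KO and 449 to 575 CPM in WT, without overlap. Mrc1 was at 1174 to 2867 CPM in Tgfbr2_KO and 1092 to 1431 CPM in WT, with only KO1 inside the WT range. Of the leading gene of each list, Chil3, Csf3r and Ccr2 were called lower and Pf4, Il1rl1 and Inmt higher after set adjustment (edgeR adjusted p from 0.0131 to 0.0415). That fit called 8.59% of all genes higher and 7.89% lower, and the lists were chosen with earlier results known.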

How the data were processed

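RNA was extracted with TRIzol and polyadenylated RNA was made into TruSeq stranded libraries read on a NovaSeq, per the labels' protocols. The deposited table holds estimated counts per gene that the authors made with salmon, per its name, with no scaling for library size. GRCm38 and DESeq2 1.40.1 stand in the submitters' processing notes. Not given in the sources used here are the salmon version and strand setting, the annotation and any filters. Between 81.8% and 84.8% of values were whole, and 22503 identifiers were in GENCODE M21, which gave positions and exon lengths.

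Counts were rounded and tested in R 4.3.3 with edgeR 4.0.16 (filterByExpr, minimum count 10 and total 15, TMM, robust quasi-likelihood test, group only), with Benjamini-Hochberg adjustment over all genes tested and a threshold of 0.05. limma 3.58.1 and DESeq2 1.42.0 were alternatives, with other scaling, no filter, a replicate block, adjustment for library set, each set alone and each library left out. The group-only edgeR fit was tested on simulated counts that held no difference between library sets, and the other fits were not. CPM are TMM-scaled, SE are standard errors, and correlations were taken on log2 CPM (prior count 2). Floors cover counting error only.

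The 9 genes, the NAD and marker lists and the library sets were chosen with earlier results of these data known. Other genes were named by rule: up to 3 per role list with the smallest p in each of 2 fits, and the 5 closest to Cd38 by each measure. Cd3e, Klrb1c, Ly6g, Cx3cr1, Mrc1, Itga2b, Hba-a1, Ppbp, Nt5e, Art2b, Me1 and Parp9 were named after their values were seen. Some marker genes that the rule names are shown as list sums only.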

Additional observations from a re-analysis of the deposited data

Results flagged for a closer look

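In 9 of 78 groups of 4 libraries (39 genes in each genotype) 1 library lay far from the other 3, where chance flags about 1 in 20. None of the 9 was among Cd38, Bst1, Nampt, Naprt, Nadk, Nmnat1, Nmnat3, Sirt1 and Parp1. In 8 of them the library was KO1, the KO library with the largest sums of epithelial and endothelial markers, whose part was not tested. KO1 is the only lung-rich KO library, while WT1 and WT2 are both lung-rich. The rule can therefore flag a difference between the sets in Tgfbr2_KO but hardly in WT, and nothing is read from the number of flags. P2rx7 was at 117 CPM in KO1 against 166 to 175 CPM in KO2 to KO4. Afmid was at 8.50 CPM against 14.4 to 15.2 CPM. Kmo was at 11.9 CPM against 24.4 to 25.7 CPM. Pgd was at 104 CPM against 152 to 160 CPM. Idh1 was at 54.3 CPM against 79.4 to 82.7 CPM. Sirt2 was at 93.0 CPM against 127 to 130 CPM. Lsm12 was at 25.9 CPM against 34.7 to 35.4 CPM. Nmnat2, an isoform known from neurons, was at 7.04 CPM in KO1 against 0.102 to 0.275 CPM. For 1 identifier of Nnt, KO4 was at 17.0 CPM against 23.5 to 24.7 CPM in KO1 to KO3.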

How the results depend on the processing

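The sign of the log2 fold change held in all 18 alternatives for Cd38, Bst1, Nampt, Nmnat3 and Parp1, in 17 for Nadk and Nmnat1 and in 13 for Sirt1. Naprt was at 0.00 in the 3 lung-rich libraries and above 0 in the other 17. That of Cd38 was 0.87 in the 3 lung-rich libraries, its lowest value, and 1.15 at most. Over all genes, 25 were called higher and 13 lower. With library totals only the counts were 53 and 28, and with DESeq2 347 and 180. Adjusted for library set they were 1095 and 1006, in the 5 lung-poor libraries 2493 and 2363, in the 3 lung-rich libraries 443 and 273, and after set adjustment with WT3 and WT4 summed and KO4 left out 70 and 115. Leaving out 1 library gave 0 to 619 higher and 0 to 241 lower. The upper values were without KO1, and the 0 counts came without any of the other 7 libraries, where 467 to 814 higher and 298 to 637 lower had an unadjusted p under 0.05. The other NAD genes gave 2 higher with library totals only, 3 higher and 1 lower with DESeq2, 4 and 5 after set adjustment, 11 and 10 in the 5 lung-poor libraries, 2 lower in the 3 lung-rich libraries, and 0 to 4 higher and 0 to 1 lower with 1 library left out. Of the 9 genes, 3 were called lower after set adjustment, 4 higher and 3 lower in the 5 lung-poor libraries, and 0 to 1 higher with 1 library left out. With the replicate number as a block, 0 genes were called higher and 0 lower in all, 0 of the 9 among them, while 886 and 593 had an unadjusted p under 0.05, with Cd38 at 1.09 (SE 0.06). Numbers did not pair the samples: deviations from the group means correlated at 0.867, -0.794, 0.694 and 0.753 for numbers 1 to 4. The causes of these shifts were not tested. Depth limits Naprt, Nmnat1 and Nmnat3, which had 76 to 237 counts per library. It also limits some of the other NAD genes, among them Ryr1 (36 to 144 counts), Qprt (48 to 104) and Kynu (49 to 71 in Tgfbr2_KO).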

Other observations

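Nt5e, Me1, Parp9 and Art2b, not called over all 8 libraries, were called lower among the 5 lung-poor libraries, while KO1 lay above both WT libraries of the lung-rich set, where none of the 4 was called. Among all genes tested, 18.7% were called lower in the lung-poor libraries, and KO1 lay above both lung-rich WT libraries for 48.6%. The 4 were picked for this pattern, so nothing is read from their number. Nt5e, which encodes CD73, the surface enzyme that makes adenosine from AMP, was at 40.3, 1.71, 2.85 and 2.97 CPM in KO1 to KO4 and at 32.6, 23.4, 9.75 and 9.25 CPM in WT1 to WT4. KO2 to KO4 were below every WT library, while KO1 was above all of them, with log2 differences of -1.94 (SE 0.18, edgeR adjusted p = 9.11e-08) among the lung-poor libraries and 0.47 (SE 0.20, edgeR adjusted p = 0.238) within the lung-rich set. Me1, the NADP-dependent malic enzyme, was at 23.1, 0.75, 1.27 and 1.10 CPM in KO1 to KO4 and at 14.3, 12.8, 1.80 and 1.97 CPM in WT1 to WT4, with -0.87 (SE 0.31, edgeR adjusted p = 0.0345) and 0.70 (SE 0.16, edgeR adjusted p = 0.0502) in the same order of sets. Parp9, an interferon-induced relative of Parp14, was at 57.7, 52.0, 51.8 and 53.3 CPM in KO1 to KO4 and at 43.8, 44.1, 63.5 and 62.4 CPM in WT1 to WT4, with -0.26 (SE 0.05, edgeR adjusted p = 0.000251) and 0.33 (SE 0.11, edgeR adjusted p = 0.134). Art2b, an ADP-ribosyltransferase of the cell surface that uses NAD, had -0.92 (SE 0.29, edgeR adjusted p = 0.0149) and 0.65 (SE 0.55, edgeR adjusted p = 0.554) at 0.659 to 2.70 CPM. The difference between the sets was not tested for any of these, and the 14 endothelial and 15 epithelial markers were higher in KO1 than in WT1 and WT2 as sums.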
